A study of Mus musculus with 16 samples.

Results

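The transcriptional response of wild-type (WT) mouse brown fat to isoproterenol was measured in 4 isoproterenol and 4 saline libraries, out of 16 libraries in the series. The 8 libraries were chosen by their genotype and treatment labels alone, and all 15350 genes listed for the 16 libraries were compared. The mice were C57BL/6J with the genotype label Wildtype. Isoproterenol was infused at 60 mg/kg/day for 3 days from implanted Alzet minipumps, and the control mice carry the treatment label Saline. Interscapular brown adipose tissue was then taken, and total RNA was made into stranded mRNA libraries for single-read sequencing. The other 8 libraries come from Ucp1-/- mice under the same treatments. Their levels enter no comparison here, but an alternative fit takes the spread from all 16 libraries. The labels give no age or sex and do not say that each library is a separate animal, so the p-values reflect how far these libraries spread, and part of that spread may be technical. A treatment note attached to every library describes the isoproterenol infusion alone, so the control group rests on its own treatment label and title.

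Brown fat is an adipose tissue that makes heat. Noradrenaline from sympathetic nerves acts on beta-adrenergic receptors of brown adipocytes, which couple to Gs and raise cAMP. Protein kinase A then starts lipolysis and the transcription of thermogenic genes, and the released fatty acids both fuel the mitochondria and open uncoupling protein 1 (UCP1) in their inner membrane. Isoproterenol is a synthetic agonist of all beta-adrenergic receptor subtypes, and a minipump holds the stimulus on for days, long enough for the tissue to recruit mitochondria and new cells.

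Levels are reads scaled to library size as CPM, set per library and not per gene length, so they were compared between libraries and never between genes. Total reads over the listed genes ran from 10479767 to 12241512 in saline and from 11093784 to 16720338 in isoproterenol libraries. The first principal component of the 8 libraries held 46.2% of the variance and separated the treatments, from -52.9 to -39.0 in saline and from 41.6 to 57.3 in isoproterenol. The second held 25.1% and followed skeletal muscle RNA, whose 19 measured markers summed to 433, 122, 1620 and 10280 CPM in saline libraries 1 to 4 and to 312, 96.8, 1319 and 3354 CPM in isoproterenol libraries 1 to 4. Each of those 19 markers missed the threshold, and none was at 0 reads. Their differences were all below 0, with a median log2 difference of -0.70, and 5 of them passed as lower with the replicate number as a block. The identity of the tissue was checked on Cidea, a lipid droplet protein of brown adipocytes, which stood at 2602 CPM or more in each of the 8 libraries.

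In the linear model of limma with Benjamini-Hochberg adjustment over all genes, 4923 of the 15350 genes passed an adjusted p of 0.05, which is 32.1%. Of all genes, 16.3% were higher and 15.8% were lower under isoproterenol, 2501 and 2422 genes. Their median log2 differences were 0.75 and -0.70, against -0.02 over all genes. The response was broad and mostly moderate: 1835 called genes differed by less than 1.5-fold, while 815 rose and 731 fell by at least 2-fold, and 69 rose and 53 fell by at least 8-fold. For 5055 genes, 32.9% of those tested, the groups of 4 libraries did not overlap, and 4341 of these were among the called genes. When the spread was estimated over all 16 libraries of the series instead, 1167 genes were higher and 1379 lower, and of the 146 called genes named here 37 did not pass. The counts in the gene lists fell as well: of 38 lists with 5 or more higher genes, 29 had a count more than 1.5 times smaller. Of 11 lists with 5 or more lower genes, 8 did. The counts in each list below stand against the 16.3% of all genes that were higher and the 15.8% that were lower. The plot of all genes shows the called genes over the whole range of levels.

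**Figure D1:**
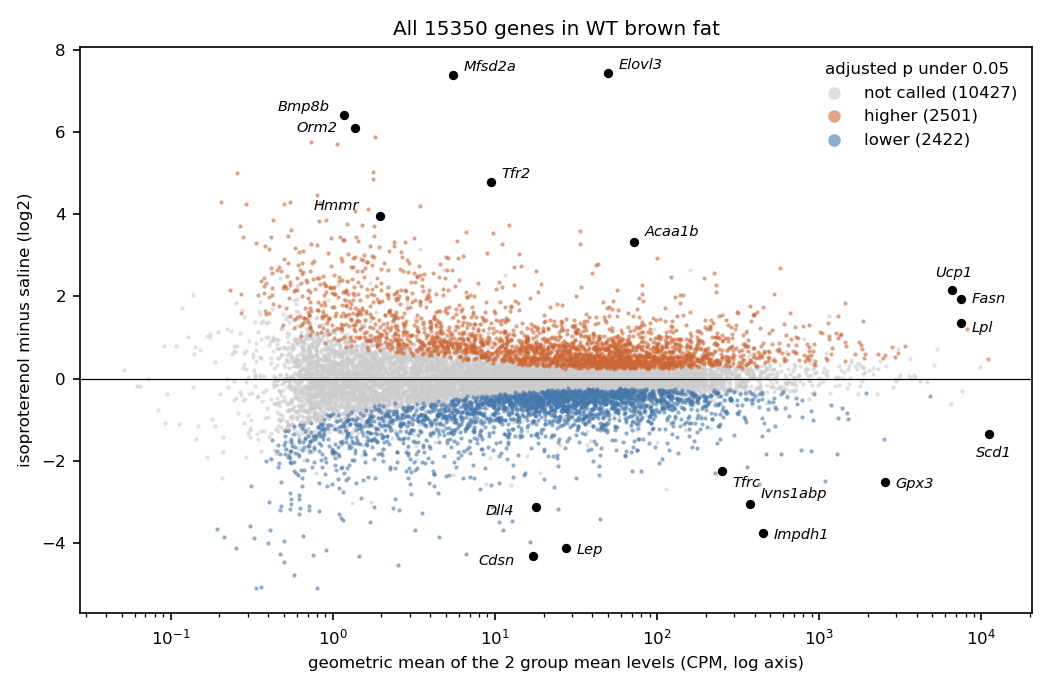
Difference between isoproterenol and saline (log2, y axis) against the geometric mean of the group mean levels (CPM, log axis) for each of the 15350 genes; colours mark the 2501 higher and 2422 lower genes and black points the genes named. Elovl3 and Mfsd2a lie highest, at log2 differences of 7.44 and 7.38, while Impdh1 and Gpx3 stand out among the lower genes of high level.

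Among the 113 genes with a mean of at least 1000 CPM, 37 were higher and 13 lower, and among the 7466 genes between 10 and 100 CPM, 1191 were higher and 1356 lower. The balance of higher and lower calls depended on the scaling. With plain library totals in place of the authors' scaled library sizes, the median gene moved to -0.13, and the split went from 50.8% higher and 49.2% lower of the called genes to 35.4% and 64.6%, or 1718 and 3139 genes. Long RNAs that code for no protein were called lower more often than higher. Of 370 lincRNA genes 9.19% were higher and 20.5% lower, and of 417 genes annotated as antisense 6.71% were higher and 24.5% lower, against 17.4% and 15.5% of 13561 protein-coding genes. Whether the counting used strand is not given in the sources used here, so reads of a gene and of its antisense partner cannot be told apart.

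Impdh1 and Ivns1abp were among the genes with the smallest p-values. Impdh1, the enzyme that commits inosine monophosphate to guanine nucleotides, read 1862, 1826, 1341 and 1631 CPM in saline libraries 1 to 4 and 147, 109.7, 124 and 113 CPM in isoproterenol libraries 1 to 4. It fell by 13.5-fold (log2 difference -3.75, SE 0.14, adjusted p = 1.32e-07), and each saline library lay above each isoproterenol library. Ivns1abp, which codes for a kelch-repeat protein, fell from 1078 ± 61.7 CPM (SD, n = 4) to 131 ± 14.7 CPM (SD, n = 4), a log2 difference of -3.04 with an adjusted p of 1.32e-07. Dll4, a Notch ligand of sprouting endothelium, fell from 52.3 to 6.13 CPM. Others among the 10 lower genes with the smallest p were Cdh23, a cadherin (from 35.5 to 3.21 CPM), Lctl, a klotho-family glycosidase-like gene (from 73.1 to 8.18 CPM), Smoc2, a matricellular protein gene (from 101 to 30.6 CPM), Snhg11, Strip2 and Vat1l, and Gpx3, a secreted glutathione peroxidase (from 6071 to 1076 CPM).

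Among higher genes, the smallest p-value belonged to Tst, which codes for the mitochondrial sulfurtransferase rhodanese. Its levels were 41.8, 36.9, 38.7 and 40.5 CPM in saline libraries 1 to 4 and 157, 152, 135 and 168 CPM in isoproterenol libraries 1 to 4. The saline libraries kept within a few CPM of each other and the isoproterenol libraries lay far above them (3.87-fold, log2 difference 1.95, SE 0.09, adjusted p = 1.04e-06). Chd3, a chromatin remodeller of the NuRD complex, rose from 65.2 to 257 CPM. Nmb, the gene of the peptide neuromedin B, rose from 3.08 to 25.6 CPM, and Acaa1b, a peroxisomal thiolase, rose from 23.2 to 227 CPM. The remaining genes of that group of 10 were Fam131c, Rundc3a, Gm45769, the histone genes Hist1h4h and Hist1h1c, and Mrpl46, a protein of the mitochondrial ribosome.

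By size on the log2 scale, the 8 genes that rose most were Elovl3, Mfsd2a, Bmp8b, Orm2, Pla2g2e, Col10a1, Cpne5 and Hist1h1d, and several of them were close to silent in saline. Mfsd2a, a transporter of lysophospholipids, had 16 reads over the saline libraries and 4028 over the isoproterenol libraries. Its isoproterenol levels spread from 13.6 to 190.5 CPM, and with observation weights from voom its adjusted p was 0.121. Bmp8b, a bone morphogenetic protein made by brown adipocytes, had 4 reads in saline and 561 in isoproterenol, and Col10a1, a collagen gene, rose from 0.112 to 4.78 CPM. Acot5, a peroxisomal acyl-CoA thioesterase, had 0 reads in the saline libraries and 77 in the isoproterenol libraries. Set against a floor of 3 reads over the saline group, it was at least 22.4-fold higher. The unnamed gene model Gm6614 also had 0 reads in saline and 48 in isoproterenol, at least 14.0-fold higher by the same floor.

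The 8 genes with the largest falls on the log2 scale were Gm7117, Cib4, Chrnb4, Otof, Shisa7, Lncenc1, Cdsn and Gm9961. Chrnb4, a nicotinic acetylcholine receptor subunit, fell from 92 reads over the saline libraries to 1 read, Otof, the calcium sensor otoferlin, from 124 to 4 reads, and Cib4, a calcium-binding protein gene, from 178 to 6 reads. At such depths the fitted fold depends on the prior count and is not given. Cdsn, corneodesmosin, had enough reads for a fold: it fell from 74.3 to 3.96 CPM, or 20.01-fold (log2 difference -4.32, SE 0.27, adjusted p = 8.88e-06).

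Adrb3 codes for the main beta receptor of rodent adipocytes, and it read 204, 138, 155 and 147 CPM in saline libraries 1 to 4 and 124, 157, 203 and 168 CPM in isoproterenol libraries 1 to 4. Those groups overlapped, and the difference of 0.01 was close to 0 with an adjusted p of 0.962. Adrb1 ranged from 28.6 to 72.9 CPM in saline and from 21.9 to 41.6 CPM in isoproterenol (adjusted p = 0.278). Of the alpha receptors, which answer noradrenaline, Adra1d read 29.4, 41.7, 39.6 and 34.4 CPM in saline libraries 1 to 4 and 14.1, 6.72, 13.8 and 9.84 CPM in isoproterenol libraries 1 to 4. Each isoproterenol library lay under each saline library, a 3.38-fold fall (log2 difference -1.75, SE 0.23, adjusted p = 0.000315), while Adra1a went from 79.2 to 106 CPM with an adjusted p of 0.406.

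Behind the receptors, cAMP-handling genes were called about as often as genes in general. Of 41 measured genes of cAMP synthesis, protein kinase A and cAMP breakdown, 5 were higher (12.2%, against 16.3% of all genes) and 7 lower (17.1%, against 15.8%), with a median log2 difference of 0.10 that turned to -0.01 with library totals; without isoproterenol library 1 the higher count was 8. Adcy3, an adenylyl cyclase, read 70.2, 90.8, 109.5 and 123 CPM in saline libraries 1 to 4 and 211, 379, 829 and 734 CPM in isoproterenol libraries 1 to 4. Its levels rose 4.88-fold (log2 difference 2.29, SE 0.44, adjusted p = 0.00645), and isoproterenol libraries 3 and 4 stood highest. Adcy10, the bicarbonate-sensitive soluble cyclase, rose from 0.947 to 7.51 CPM, and Pde7b, a cAMP phosphodiesterase, rose from 15.7 to 114 CPM. Rgs2, which shortens G protein signals, fell from 284 to 95.3 CPM, and Akap1, which tethers protein kinase A to mitochondria, fell from 796 to 360.1 CPM.

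Immediate early genes, the first transcripts after a cAMP or growth factor signal, were not raised at 3 days. A positive difference was seen in 5 of 24 measured members. Of the 24, 0 were higher (against 16.3% of all genes) and 4 were lower (16.7%, near the 15.8% of all genes). The 4 were Egr1, Jun, Btg2 and Ier2, of which the first 2 code for transcription factors. Egr1 read 46.4, 275, 46.7 and 322 CPM in saline libraries 1 to 4 and 18.3, 9.41, 9.35 and 9.07 CPM in isoproterenol libraries 1 to 4. Each isoproterenol library lay under each saline library, but saline libraries 2 and 4 were several times above 1 and 3 (log2 difference -3.42, SE 0.78, adjusted p = 0.0176). Nr4a1, a nuclear receptor gene, had 94.8, 163, 143 and 728 CPM in saline libraries 1 to 4 and 21.1, 34.8, 11 and 115 CPM in isoproterenol libraries 1 to 4, so the groups overlapped and the difference of -2.69 missed the threshold (adjusted p = 0.0725, and 0.000725 with the replicate block). The count depended on single libraries and on pairing. It was 2 without saline library 2, 7 without saline library 3 and 10 with the replicate number as a block. The calls of Jun and Ier2 were each lost when 1 of 5 and 1 of 4 libraries was left out, with adjusted p up to 0.0831 and 0.0618.

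The cAMP response element is the DNA word bound by CREB, a target of protein kinase A, so promoters were searched for it. RefSeq promoter windows of 280 bases (250 before and 30 after the annotated start, build GRCm38.p6) were matched to 11245 of the genes. The full element, TGACGTCA, which reads the same on both strands, lay in 3.05% of all windows, in 2.92% of those of higher genes and in 3.25% of those of lower genes. The shorter word TGACG, searched on both strands and contained in the full element, lay in 29.3% of all windows and in 28.1% of those of higher genes and of lower genes alike. Among immediate early genes it lay in 12 of 19 windows, 63.2%. An E-box, CACGTG, lay in 9.49% of all windows, in 10.1% of higher and in 9.24% of lower ones, and the estrogen-related receptor word TCAAGGTCA lay in 0.267% of all windows. As an example from each direction, the windows of Ldha (lactate dehydrogenase A, called higher, chr7:46845554-46845833, plus strand) and Ppp1r15a (a phosphatase subunit of the integrated stress response, called lower, chr7:45526239-45526518, minus strand) are shown with the full element in capitals. A match describes the sequence and is neither a bound site nor a cause.
Ldha: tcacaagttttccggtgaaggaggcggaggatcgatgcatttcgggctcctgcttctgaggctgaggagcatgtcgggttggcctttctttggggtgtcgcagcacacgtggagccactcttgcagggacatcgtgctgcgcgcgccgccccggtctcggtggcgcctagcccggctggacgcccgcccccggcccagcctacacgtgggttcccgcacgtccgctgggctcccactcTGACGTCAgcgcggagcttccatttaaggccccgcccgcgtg
Ppp1r15a: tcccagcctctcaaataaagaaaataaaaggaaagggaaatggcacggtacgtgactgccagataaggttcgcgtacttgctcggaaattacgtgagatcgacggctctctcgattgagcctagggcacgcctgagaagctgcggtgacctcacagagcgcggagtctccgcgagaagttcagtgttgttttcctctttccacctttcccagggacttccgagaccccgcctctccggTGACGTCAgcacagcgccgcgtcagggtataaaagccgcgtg

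Both windows held the element close to the start site, and the genes moved in opposite directions. Ldha rose from 1141 to 3018 CPM (log2 difference 1.41, SE 0.17, adjusted p = 0.000194), and Ppp1r15a fell from 34.1 to 16.6 CPM (log2 difference -1.02, SE 0.21, adjusted p = 0.00403).

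The brown fat programme was raised in 13 of its 30 measured genes and lowered in 3, with a median log2 difference of 0.30. With the spread of all 16 libraries 4 were higher and 0 lower, and 1 was lower without saline library 3 or 4 or isoproterenol library 1 or 2. Ucp1 (ENSMUSG00000031710) read 2298, 3449, 3220 and 3339 CPM in saline libraries 1 to 4 and 8905, 11662, 17655 and 18458 CPM in isoproterenol libraries 1 to 4. Each isoproterenol library exceeded each saline library, a 4.46-fold rise (log2 difference 2.16, SE 0.24, adjusted p = 0.000118). With the spread of all 16 libraries its adjusted p was 0.152. That spread takes in the Ucp1-/- libraries, in which this gene is knocked out, so it does not measure how far the WT libraries spread. Elovl3, which elongates very long chain fatty acids in brown fat, had 0.75, 4.2, 4.42 and 7.26 CPM in saline libraries 1 to 4 and 274, 600.5, 599 and 927 CPM in isoproterenol libraries 1 to 4, a log2 difference of 7.44 (SE 0.77). Other members that rose were Letmd1, a mitochondrial protein needed for thermogenesis (from 707 to 1827 CPM), Otop1, a proton channel (from 184 to 442 CPM), Cox7a1, a subunit of cytochrome c oxidase (from 519 to 787 CPM), and S100b, a secreted protein that promotes sympathetic innervation of the tissue (from 70.4 to 276 CPM). Dio2, the deiodinase that makes active thyroid hormone, read 39.9, 34.1, 20.7 and 195 CPM in saline libraries 1 to 4 and 121, 355, 320.5 and 622 CPM in isoproterenol libraries 1 to 4. Saline library 4 overlapped the isoproterenol group, and the difference of 2.65 just missed the threshold (adjusted p = 0.0517, and 0.0151 with the replicate block). The coactivator gene Ppargc1a (from 51.6 to 58.2 CPM, adjusted p = 0.77) and Cidea (from 3073 to 3269 CPM, adjusted p = 0.698) did not pass either, and Ppara, the fatty acid-sensing nuclear receptor, fell from 276 to 129.9 CPM.

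**Figure D2:**
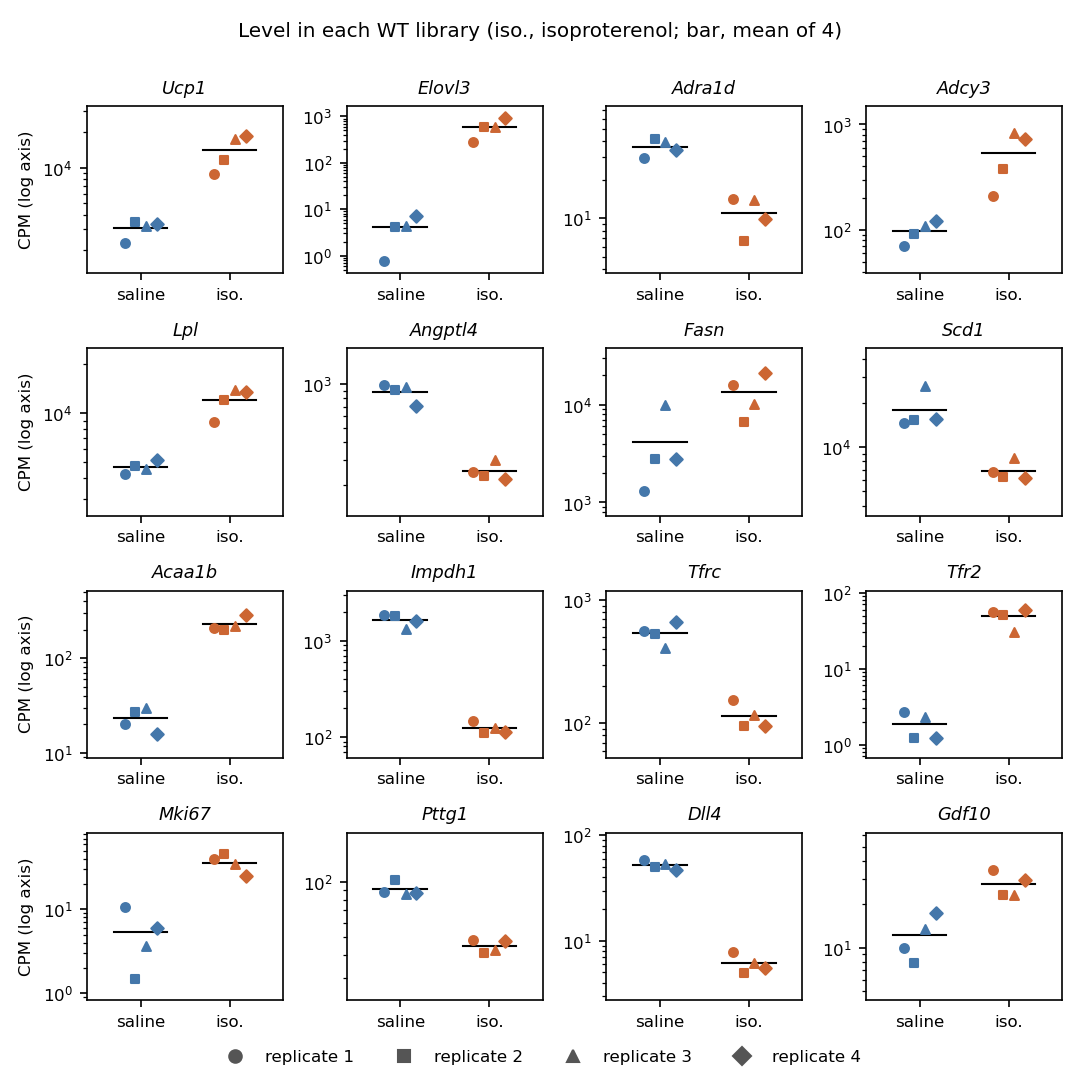
Level of 16 genes in each of the 4 saline and 4 isoproterenol libraries (CPM, log axis; symbols mark the replicate number and bars the mean of 4). The groups stand apart in each panel except that of Fasn, where saline library 3 lies among the isoproterenol libraries.

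Heat-producing cycles that bypass UCP1 showed 3 higher (21.4%, against 16.3% of all genes) and 2 lower genes of 14 (14.3%, near the 15.8% of all genes). In the creatine cycle, Alpl, the phosphatase that hydrolyses phosphocreatine, rose from 27.7 to 93.6 CPM (log2 difference 1.75, SE 0.12, adjusted p = 8.98e-06), while Slc6a8, the creatine transporter, fell from 92.0 to 32.7 CPM (log2 difference -1.49, SE 0.11, adjusted p = 1.07e-05). Several other members of this list are also muscle genes, and skeletal muscle RNA differed between the libraries as given above. With a muscle score as covariate, an alternative chosen after seeing the data, 4 members were higher and 3 lower, and the median log2 difference was -0.15 in place of -0.29. With the replicate block 5 members were lower.

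Genes that bring fatty acids into the tissue rose more often than they fell. Of 19 genes of lipoprotein lipase and fatty acid uptake 8 were higher and 2 lower, with 5 higher without saline library 3 or 4. Lpl, the lipase that frees fatty acids from circulating lipoproteins, read 4248, 4746, 4553 and 5173 CPM in saline libraries 1 to 4 and 8797, 11972, 13848 and 13530 CPM in isoproterenol libraries 1 to 4. It rose 2.54-fold (log2 difference 1.34, SE 0.17, adjusted p = 0.000223) with no overlap. Angptl4, the secreted inhibitor of that lipase, had 984, 905, 951 and 707 CPM in saline libraries 1 to 4 and 247, 231, 297 and 222 CPM in isoproterenol libraries 1 to 4 and fell 3.55-fold (log2 difference -1.83, SE 0.14, adjusted p = 1.17e-05). The long chain acyl-CoA synthetase gene Acsl5 rose from 108 to 499.9 CPM, Fabp4, a fatty acid binding protein, rose from 9280 to 12951 CPM, and the lipoprotein receptor gene Vldlr fell from 302 to 138 CPM.

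Lipases and droplet proteins split into 6 higher and 4 lower of 19, and into 6 higher and 7 lower with library totals. Mgll, which cleaves the last fatty acid from glycerol, rose from 771 to 2241 CPM (log2 difference 1.53, SE 0.12, adjusted p = 2.13e-05), as did Abhd5, the activator of the first lipase (from 90.8 to 179.5 CPM), and Plin2, a droplet coat protein (from 455 to 1116 CPM). Pnpla2, that first lipase, fell from 5574 to 4145 CPM, a call that was lost with the replicate block (adjusted p = 0.0519) and without any of 6 libraries (adjusted p up to 0.0847). Lipe, hormone-sensitive lipase, went from 1610 to 1384 CPM (adjusted p = 0.204). Plin4, a coat protein of adipocyte droplets, had 1212, 1573, 1345 and 1509 CPM in saline libraries 1 to 4 and 411, 451, 417 and 406 CPM in isoproterenol libraries 1 to 4. Its groups were far apart, with a 3.33-fold fall (log2 difference -1.74, SE 0.11, adjusted p = 6.8e-06).

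Fat synthesis genes were raised in part. De novo lipogenesis had 7 of 20 genes higher and 2 lower, a median log2 difference of 0.50, and triglyceride synthesis had 8 of 17 higher and 0 lower, a median of 0.47. Fasn, fatty acid synthase, read 1325, 2803, 9889 and 2758 CPM in saline libraries 1 to 4 and 15722, 6711, 10170 and 20894 CPM in isoproterenol libraries 1 to 4. Saline library 3 reached the isoproterenol range, and the 3.86-fold rise only just passed (log2 difference 1.95, SE 0.63, adjusted p = 0.049); it was lost with library totals, with voom weights, with the replicate block and without any of 7 libraries, with adjusted p up to 0.127. Elovl6, which elongates palmitate, rose from 232 to 1439 CPM, and Me1, a source of NADPH, rose from 142 to 343 CPM. Acly, which makes cytosolic acetyl-CoA, went from 670.2 to 1961 CPM with overlap (adjusted p = 0.0646). Scd1, the desaturase that makes oleate, went the other way.

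The levels of Scd1 were 14575, 15260, 26206 and 15532 CPM in saline libraries 1 to 4 and 6809, 6292, 8404 and 6162 CPM in isoproterenol libraries 1 to 4. Each isoproterenol library lay under each saline library, a 2.53-fold fall (log2 difference -1.34, SE 0.21, adjusted p = 0.000738). In glycerolipid assembly, Gpd1, which makes glycerol-3-phosphate, rose from 5363 to 12402 CPM, Gk, glycerol kinase, rose from 87.1 to 573 CPM, Agpat2, an acyltransferase, rose from 764 to 2754 CPM, and Mogat1, a monoacylglycerol acyltransferase, rose from 2.18 to 16.2 CPM.

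Mitochondrial fatty acid oxidation had 11 of 22 genes higher and 1 lower, with a median log2 difference of 0.47. Cpt2, the inner carnitine palmitoyltransferase, rose from 511 to 1254 CPM, Acadm, medium chain acyl-CoA dehydrogenase, rose from 2575 to 4471 CPM, Hadha, of the trifunctional protein, rose from 2143 to 3687 CPM, and Decr1, which handles unsaturated fatty acids, rose from 929 to 1931 CPM. Peroxisomal genes had 15 of 30 higher and 3 lower. There Acaa1b had 20.1, 26.9, 30 and 16.1 CPM in saline libraries 1 to 4 and 209, 196, 216 and 286 CPM in isoproterenol libraries 1 to 4, a 9.94-fold rise (log2 difference 3.31, SE 0.19, adjusted p = 5.97e-06), although reads could be split with its near-identical neighbour Acaa1a. Acaa1a itself went from 231 to 209 CPM with overlap (adjusted p = 0.36). Scp2, a sterol carrier thiolase, rose from 540.1 to 1376 CPM, and Cat, catalase, rose from 707 to 1517 CPM. When the spread was estimated over all 16 libraries of the series, 0 of the 22 oxidation genes and 2 of the 30 peroxisomal genes passed as higher.

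Cholesterol synthesis and uptake had 8 of 25 genes higher and 1 lower, but 5 higher with the replicate block, and 5 higher without saline library 2, 3 or 4 or isoproterenol library 4. Nsdhl, a demethylating sterol dehydrogenase, rose from 22.6 to 60.7 CPM. Hmgcs1, which makes the precursor of mevalonate, rose from 198 to 384 CPM with overlap of the groups (adjusted p = 0.00937). The lower gene was Fdft1, squalene synthase, the first step committed to sterols. Fdft1 read 152, 202, 270.5 and 211 CPM in saline libraries 1 to 4 and 78.7, 37.3, 43.1 and 61.0 CPM in isoproterenol libraries 1 to 4, and each isoproterenol library was under each saline library (log2 difference -1.96, SE 0.24, adjusted p = 0.000374).

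Of 27 genes of glucose uptake and glycolysis 9 were higher and 2 lower. Ldha and Pfkp, a phosphofructokinase isoform (from 96.2 to 239 CPM), rose most clearly, and Aldoa, aldolase, rose from 2497 to 3804 CPM. Slc2a1, the basal glucose transporter, fell from 15.4 to 10.1 CPM (log2 difference -0.61, SE 0.13, adjusted p = 0.00401), and Txnip, which restrains glucose uptake, fell from 1623 to 487 CPM. Pyruvate dehydrogenase and the tricarboxylic acid cycle had 10 of 30 higher and 1 lower (6 higher without isoproterenol library 3), among them Pdhb (from 685 to 1497 CPM), of pyruvate dehydrogenase, and Mdh2 (from 1292 to 2377 CPM), mitochondrial malate dehydrogenase. Pdk4, the kinase that shuts pyruvate dehydrogenase, went from 2566 to 2008 CPM with overlap (adjusted p = 0.196). Branched chain amino acid breakdown had 5 higher and 5 lower of 23, and 8 lower with library totals.

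Mitochondrial genes encoded in the nucleus moved upward by small steps. Complex I had 13 of 38 higher and 1 lower (8 higher without saline library 4), complexes III and IV had 8 of 25 and 1, and ATP synthase had 4 of 16 and 0. With library totals these 3 lists had 9 and 3, 6 and 1, and 3 and 0. The size of the steps depended on the scaling: the medians of the lists were 0.23, 0.29 and 0.26, and 0.11, 0.18 and 0.15 with library totals. The mitochondrial ribosome had 39 of 76 higher and 0 lower, with a median log2 difference of 0.29, and 27 higher and 1 lower with library totals. Mitochondrial protein import had 20 of 30 higher and 2 lower, with a median of 0.40, and 14 higher and 4 lower with library totals, with a median of 0.29. Mrpl20, of the large mitochondrial subunit, read 70.3, 69.2, 55.5 and 57.6 CPM in saline libraries 1 to 4 and 182, 174, 159 and 170.4 CPM in isoproterenol libraries 1 to 4. The groups were tight and separate, a 2.73-fold rise (log2 difference 1.45, SE 0.10, adjusted p = 1.01e-05). Mrpl46 rose from 34.2 to 80.8 CPM, Uqcrfs1, the Rieske iron-sulfur protein of complex III, rose from 934 to 1838 CPM, and Hspa9, the chaperone that pulls proteins into the matrix, rose from 1352 to 2399 CPM. Letm1, a cation exchanger of the inner membrane, had 190.4, 276, 293 and 272 CPM in saline libraries 1 to 4 and 982, 876, 1133 and 1269 CPM in isoproterenol libraries 1 to 4, a 4.15-fold rise (log2 difference 2.05, SE 0.16, adjusted p = 1.67e-05). Coq8a, which supports coenzyme Q synthesis, fell from 4147 to 1503 CPM (log2 difference -1.47, SE 0.15, adjusted p = 6.15e-05). With the spread estimated over all 16 libraries, 11 of the 76 mitochondrial ribosome genes and 5 of the 30 import genes passed as higher, with 1 gene of complex I and 0 of complexes III and IV and of ATP synthase.

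**Figure D3:**
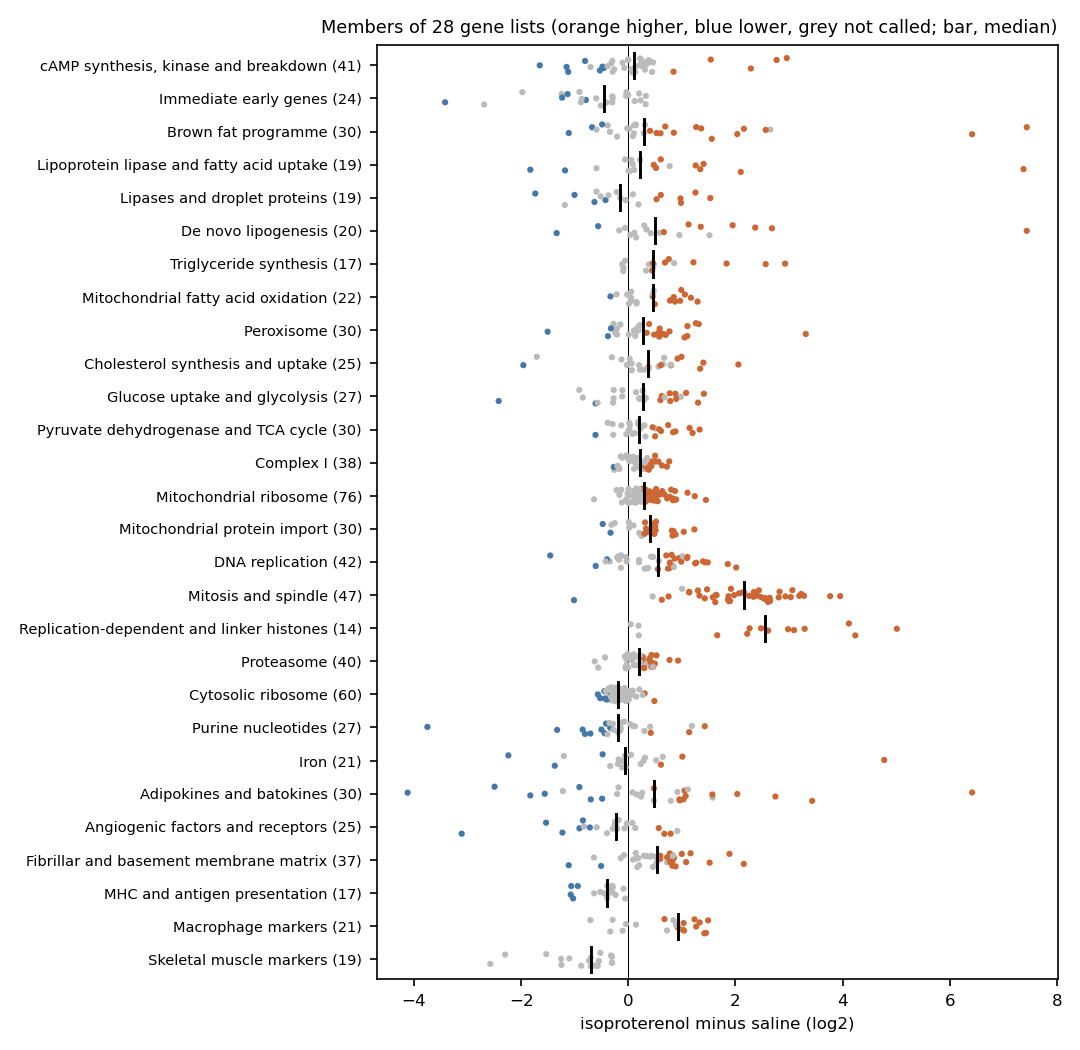
Difference between isoproterenol and saline (log2, x axis) of each measured member of 28 gene lists, with the number measured in brackets, the call in colour and the list median as a bar. Mitosis (median 2.16) and histones (median 2.54) stand to the right of the other lists, and the skeletal muscle markers carry no call without the replicate block, with which 5 were lower.

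Mitosis genes were raised together. Of 47 measured mitosis and spindle genes 44 were higher and 1 lower, with a median log2 difference of 2.16; 37 were higher with the spread of all 16 libraries. Hmmr, a spindle-binding protein (ENSMUSG00000020330), read 0.661, 0.406, 0.326 and 0.623 CPM in saline libraries 1 to 4 and 7.76, 9.09, 8.04 and 5.57 CPM in isoproterenol libraries 1 to 4. It rose 15.5-fold (log2 difference 3.96, SE 0.29, adjusted p = 1.13e-05), and the lowest isoproterenol library was several times the highest saline library. Mki67, which codes for the proliferation antigen Ki-67, had 10.5, 1.49, 3.67 and 6.02 CPM in saline libraries 1 to 4 and 39.6, 45.5, 34.4 and 25.1 CPM in isoproterenol libraries 1 to 4. The groups did not overlap, and saline library 1 stood highest of its group (log2 difference 3.03, SE 0.56, adjusted p = 0.00532). Top2a, topoisomerase of mitotic chromosomes, rose from 3.98 to 30.8 CPM, Ccnb2, a mitotic cyclin, rose from 1.1 to 7.83 CPM, and Cdc20, the activator of the anaphase-promoting complex, rose from 1.9 to 13.7 CPM. The lower gene was Pttg1, securin, an inhibitor of the separation of sister chromatids. Pttg1 read 88.3, 103, 86.1 and 87.3 CPM in saline libraries 1 to 4 and 48.4, 41.1, 42.9 and 48.1 CPM in isoproterenol libraries 1 to 4, a 2.02-fold fall with no overlap (log2 difference -1.01, SE 0.10, adjusted p = 5.12e-05).

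Averaged over the list and centred per gene, the mitosis score was -0.31, -1.56, -1.22 and -1.09 in saline libraries 1 to 4 and 1.34, 1.31, 0.88 and 0.66 in isoproterenol libraries 1 to 4. DNA replication had 19 of 42 genes higher and 3 lower, with a median of 0.56. Its members included Mcm5, of the replicative helicase (from 6.61 to 17.2 CPM), and Rrm2, the small subunit of ribonucleotide reductase (from 3.77 to 14.8 CPM), both higher, and Pola2, a subunit of DNA polymerase alpha, which fell from 40.7 to 15.1 CPM. Cyclins, inhibitors and E2F factors had 5 of 27 higher and 8 lower (5 lower without any 1 of the saline libraries or isoproterenol library 1), with a median of 0.09 that turned to -0.02 with library totals. Foxm1, the activator of mitotic genes, rose from 2.44 to 10.7 CPM, and Cdkn1c, a cyclin kinase inhibitor, fell from 29.5 to 12.5 CPM. Ccnd1, the cyclin of growth factor response, rose from 21.0 to 43.2 CPM with overlap of the groups (adjusted p = 0.0123).

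Histone genes followed. Of 27 listed replication-dependent and linker histone genes, 14 were measured. Among these 14, 11 were higher and 0 lower, with a median log2 difference of 2.54. Histone genes of the same family can be near-identical copies, between which reads may be split. Hist1h1c, a linker histone gene, read 53.4, 49.7, 63.3 and 40.6 CPM in saline libraries 1 to 4 and 243, 243, 330.4 and 337 CPM in isoproterenol libraries 1 to 4 and rose 5.57-fold (log2 difference 2.48, SE 0.16, adjusted p = 6.69e-06). Hist1h4h, a histone H4 gene, rose from 5.14 to 23.9 CPM. The histone score rose over isoproterenol libraries 1 to 4 (0.98, 1.12, 1.37 and 1.44), while the mitosis score fell (1.34, 1.31, 0.88 and 0.66).

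**Figure D4:**
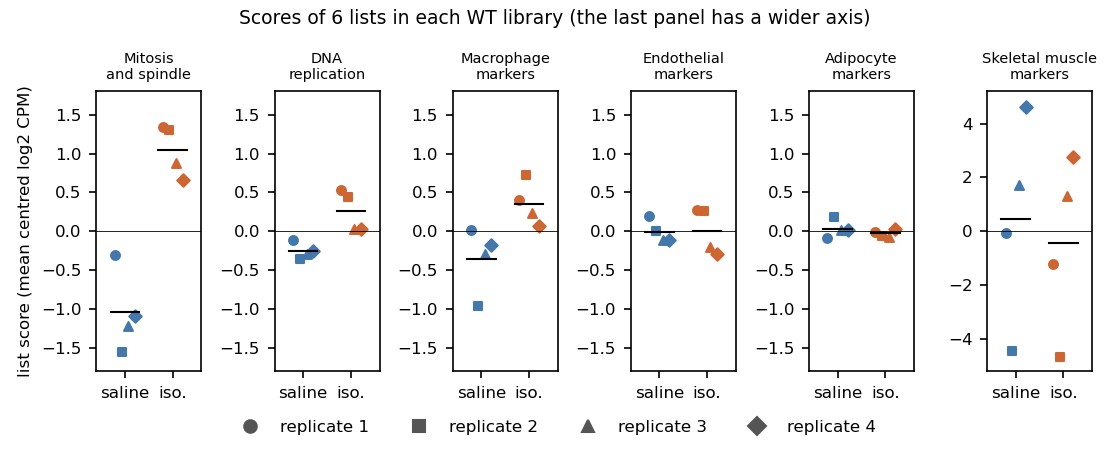
Score of 6 gene lists (mean over members of log2 CPM centred per gene) in each of the 4 saline and 4 isoproterenol libraries, with bars at the mean of 4 and a wider axis for skeletal muscle. The groups are apart for mitosis, replication and macrophage markers, and overlap for endothelial, adipocyte and skeletal muscle markers.

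Promoters of the mitosis list were searched whatever the call of each gene. The shares therefore describe the list and not the response, and a match is neither a bound site nor a cause. Searched were the CCAAT box, bound by NF-Y, and the cell cycle homology region, searched as TTTGAA and as the palindromic form TTCGAA, the word through which the MuvB complex holds and releases late cell cycle genes; both strands were read, and such words can share a base at their ends. Of 40 mitosis promoters 30 held a CCAAT box (75.0%), 29 held the homology region (72.5%) and 25 held both (62.5%). Over all 11245 windows the shares were 37.6%, 13.4% and 5.49%. Windows of all higher genes had 39.3%, 15.6% and 7.08%, and those of lower genes 39.3%, 13.2% and 5.49%. Of 34 replication promoters 64.7% held a CCAAT box and 14.7% the homology region, while 29.4% held an E2F word (TTTCCCGC, TTTGGCGC, TTTCGCGC or TTTGCCGC on either strand), against 3.72% of all windows and 7.50% of mitosis promoters. Shown are the windows of Hmmr (chr11:40733408-40733687, minus strand), Ccnb2 (chr9:70421525-70421804, minus strand) and Cdc20 (chr4:118437314-118437593, minus strand), credited to RefSeq on GRCm38.p6, with both words in capitals.
Hmmr: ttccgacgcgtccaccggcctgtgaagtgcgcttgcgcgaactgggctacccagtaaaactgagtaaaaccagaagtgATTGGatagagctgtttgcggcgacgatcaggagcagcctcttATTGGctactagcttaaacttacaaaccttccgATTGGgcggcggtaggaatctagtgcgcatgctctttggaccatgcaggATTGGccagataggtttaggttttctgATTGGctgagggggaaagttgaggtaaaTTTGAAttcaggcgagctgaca
Ccnb2: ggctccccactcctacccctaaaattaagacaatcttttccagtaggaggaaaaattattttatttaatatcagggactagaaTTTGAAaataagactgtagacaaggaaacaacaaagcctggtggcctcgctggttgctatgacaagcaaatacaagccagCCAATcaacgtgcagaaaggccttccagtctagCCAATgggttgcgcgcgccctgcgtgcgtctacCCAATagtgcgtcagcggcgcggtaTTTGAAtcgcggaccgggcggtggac
Cdc20: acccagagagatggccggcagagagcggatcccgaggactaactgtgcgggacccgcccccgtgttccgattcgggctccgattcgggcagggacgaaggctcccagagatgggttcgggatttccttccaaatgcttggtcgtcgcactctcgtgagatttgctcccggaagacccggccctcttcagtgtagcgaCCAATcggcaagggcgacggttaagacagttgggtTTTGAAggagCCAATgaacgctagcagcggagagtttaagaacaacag

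In each of the 3 windows a TTTGAA stood close to the start site with CCAAT boxes upstream of it or beside it. The plot of promoter words sets these shares side by side.

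**Figure D5:**
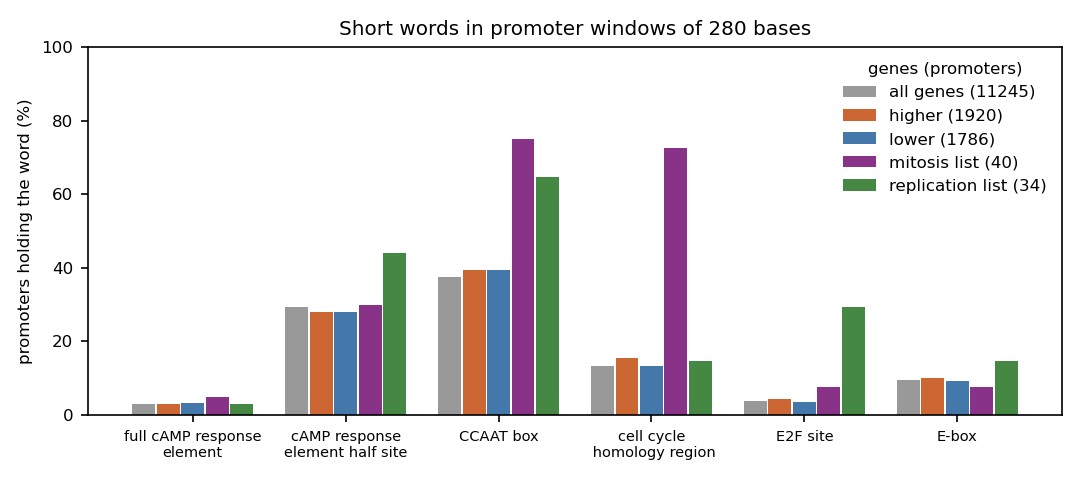
Share of 280-base promoter windows that hold each of 6 DNA words (percent, y axis) for all genes, the genes called higher or lower, and the mitosis and replication lists, with the number of promoters in brackets. The mitosis list reaches 72.5% for the cell cycle homology region against 13.4% of all genes, while higher and lower genes are within a few percent of all genes for each word.

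The proteasome had 15 of 40 genes higher and 0 lower (7 higher with the spread of all 16 libraries, and 3 lower with the replicate block), with Psmc4, an ATPase of its cap, rising from 81.1 to 155 CPM (log2 difference 0.93, SE 0.08, adjusted p = 3.92e-05). The cytosolic ribosome had 2 of 60 higher and 8 lower, with a median log2 difference of -0.20; 8 became 2 without saline library 1 or 2 or isoproterenol library 3 or 4, 22 with the replicate block and 19 with a muscle score as covariate. The share of 8 in 60, 13.3%, is near the 15.8% of all genes that were lower. Chaperones of the endoplasmic reticulum had 8 of 26 higher and 2 lower, with 4 higher with library totals and 5 without saline library 4 or isoproterenol library 2. The integrated stress response had 8 higher and 6 lower of 26, with a median of 0.01 that turned to -0.10 with library totals, and 5 higher with library totals or without isoproterenol library 1 or 2. In it Asns, asparagine synthetase, rose from 85.1 to 172 CPM and Psph, the last enzyme of serine synthesis, rose from 19.3 to 47.9 CPM, while Phgdh, the first enzyme of serine synthesis, fell from 47.3 to 17.4 CPM. Lysosomal genes had 11 of 33 higher and 2 lower, and serine and one-carbon genes 6 of 21 higher and 3 lower.

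Purine nucleotide genes had 3 higher and 9 lower of 27, Impdh1 foremost. Antioxidant genes had 11 higher and 6 lower of 30, including Pgd, which makes NADPH in the pentose phosphate path (from 201 to 702 CPM). Gpx3 is the deepest fall in that list. Its levels were 5935, 6785, 5564 and 5999 CPM in saline libraries 1 to 4 and 993, 1232, 895 and 1184 CPM in isoproterenol libraries 1 to 4, a 5.67-fold fall with wide separation (log2 difference -2.50, SE 0.14, adjusted p = 2.97e-06). Iron genes had 3 higher and 3 lower of 21 (6 higher without isoproterenol library 2). Each share, 14.3%, was near the 16.3% and 15.8% of all genes. The pair of transferrin receptors moved in opposite directions. Tfrc, the receptor for transferrin uptake, read 566, 528, 409.9 and 663 CPM in saline libraries 1 to 4 and 156, 94.8, 117 and 95.0 CPM in isoproterenol libraries 1 to 4 and fell 4.72-fold (log2 difference -2.24, SE 0.18, adjusted p = 2.57e-05). Tfr2, its sensor-like relative, had 2.69, 1.22, 2.28 and 1.2 CPM in saline libraries 1 to 4 and 55.7, 50.7, 30.5 and 59.1 CPM in isoproterenol libraries 1 to 4 and rose 27.4-fold (log2 difference 4.78, SE 0.30, adjusted p = 8.11e-06). In neither gene did the groups overlap.

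Secreted factors changed in both directions. Of 30 adipokine and batokine genes 11 were higher and 7 lower. Lep, the satiety hormone leptin, read 118, 109, 72.2 and 96.1 CPM in saline libraries 1 to 4 and 14.7, 2.16, 11.1 and 2.77 CPM in isoproterenol libraries 1 to 4, a 17.4-fold fall (log2 difference -4.12, SE 0.67, adjusted p = 0.00428) with isoproterenol libraries 2 and 4 lowest. Adipoq, adiponectin, fell from 1777 to 1090 CPM, Cfd, adipsin, fell from 2561 to 467 CPM, and Apoe, apolipoprotein E, fell from 2425 to 684 CPM. Fndc5, the irisin precursor, rose from 5.99 to 34.8 CPM. BMP and GDF ligands, receptors and inhibitors had 4 of 36 higher (11.1%, against 16.3% of all genes) and 6 lower (16.7%, against 15.8%). Gdf10, a member of that family, read 9.92, 7.81, 13.5 and 17.5 CPM in saline libraries 1 to 4 and 34.8, 23.2, 23.1 and 29.4 CPM in isoproterenol libraries 1 to 4. The lowest isoproterenol library lay above the highest saline library, a 2.34-fold rise (log2 difference 1.23, SE 0.24, adjusted p = 0.00339), while Gdf5 fell from 15.8 to 3.17 CPM.

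Of 25 angiogenic factors and receptors 3 were higher (1 without saline library 3) and 6 lower. Dll4 had 58.8, 50.2, 53.1 and 47.4 CPM in saline libraries 1 to 4 and 7.85, 4.93, 6.17 and 5.57 CPM in isoproterenol libraries 1 to 4, a 8.64-fold fall (log2 difference -3.11, SE 0.15, adjusted p = 1.04e-06). Vegfa and Vegfb, growth factors of the VEGF family, fell from 898 to 479 CPM and from 283 to 120.4 CPM, and Angpt1, a vessel-stabilizing ligand, fell from 56.2 to 19.7 CPM. Endothelial markers had 3 of 16 higher (18.8%, near the 16.3% of all genes) and 1 lower. The summed levels of these markers were 2422 to 2941 CPM in saline and 2267 to 3246 CPM in isoproterenol. Among them Emcn, endomucin of veins and capillaries, rose from 42.8 to 103 CPM and Cldn5, a tight junction protein, fell from 72.7 to 34.4 CPM.

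Matrix genes rose more often than they fell. Of 37 fibrillar and basement membrane genes 16 were higher and 2 lower, with a median log2 difference of 0.54; 10 were higher and 3 lower with library totals, and 8 were higher with the spread of all 16 libraries. Loxl1, a cross-linking enzyme of elastin, read 31.4, 15.0, 31.4 and 31.8 CPM in saline libraries 1 to 4 and 117, 116, 122 and 112 CPM in isoproterenol libraries 1 to 4 and rose 4.45-fold (log2 difference 2.16, SE 0.22, adjusted p = 0.000109). Eln, elastin itself, rose from 42.2 to 157 CPM, Bgn, the proteoglycan biglycan, rose from 141 to 416 CPM, and Col4a1, of basement membranes, rose from 939 to 1962 CPM. Among 25 metalloproteinases and inhibitors 9 were higher and 3 lower, and a pair of inhibitors parted: Timp1 rose from 1.06 to 7.76 CPM and Timp4 fell from 123 to 39.2 CPM.

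Macrophage markers were higher in 11 of 21 measured genes and lower in 0, with a median log2 difference of 0.93. Without isoproterenol library 2, 7 were higher, and with the spread of all 16 libraries 4. The 21 markers summed to 716, 315, 454 and 518 CPM in saline libraries 1 to 4 and to 899, 1219, 833 and 692 CPM in isoproterenol libraries 1 to 4, so saline library 1 overlapped isoproterenol library 4, and none was at 0 reads. Mrc1, a mannose receptor of resident macrophages, read 32.6, 16.8, 33.5 and 36.0 CPM in saline libraries 1 to 4 and 72.0, 101, 74.2 and 62.5 CPM in isoproterenol libraries 1 to 4 and rose 2.67-fold (log2 difference 1.42, SE 0.24, adjusted p = 0.00201). Cd68, a lysosomal protein of macrophages, went from 17.1 to 43.9 CPM, a call (adjusted p = 0.0284) lost with library totals (adjusted p = 0.057) and without any of 5 libraries, with adjusted p up to 0.0746. In bulk tissue, more cells of a type and more RNA per cell cannot be told apart. The part of macrophage RNA in the rise of mitosis and matrix genes was not tested.

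Other immune lists were smaller or mixed. MHC and antigen presentation had 0 of 17 higher and 4 lower, with 0 positive differences, and 8 lower with the replicate block. Cd74, the class II invariant chain, read 315, 171, 254 and 253 CPM in saline libraries 1 to 4 and 126, 128, 134 and 84.3 CPM in isoproterenol libraries 1 to 4 and fell 2.09-fold (log2 difference -1.07, SE 0.20, adjusted p = 0.00245), and H2-Aa, a class II chain, fell from 134 to 63.8 CPM. Dendritic cell markers had 2 of 10 lower, with sums of 124 to 199 CPM in saline and 87.1 to 123 CPM in isoproterenol, and B and plasma cell markers had 3 of 12 lower. With each library left out in turn, these counts were 0 to 2 and 1 to 2; they were 0 without saline library 3 or isoproterenol library 3 or 4 for dendritic cells, and 1 without saline library 1 or 2 or isoproterenol library 1 or 3 for B and plasma cells. Neutrophil markers had 6 of 12 higher and 1 lower at low levels: S100a8, of the calprotectin pair, rose from 1.25 to 4.55 CPM, and Elane, neutrophil elastase, fell from 1.64 to 0.24 CPM. Chemokines and cytokines had 10 of 32 higher and 3 lower (6 higher with library totals and without saline library 2 or 3 or isoproterenol library 1 or 2), and interferon-stimulated genes 4 of 30 and 3 (2 higher with library totals or without isoproterenol library 1). The shares of interferon-stimulated genes, 13.3% and 10%, stand against 16.3% and 15.8% of all genes. Cxcl12, a stromal chemokine, rose from 237 to 733 CPM (log2 difference 1.62, SE 0.13, adjusted p = 2.05e-05).

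Acute phase and complement genes had 11 of 25 higher and 4 lower. Orm1, an orosomucoid, read 24.0, 40.9, 48.2 and 47.2 CPM in saline libraries 1 to 4 and 177, 152, 143 and 177 CPM in isoproterenol libraries 1 to 4 and rose 4.18-fold (log2 difference 2.06, SE 0.20, adjusted p = 7.75e-05), although reads may be split with its near-identical copies. C3, the central complement protein, rose from 866 to 1888 CPM, and Lcn2, lipocalin 2, rose from 0.897 to 11.3 CPM. Hp, haptoglobin, fell from 1085 to 313 CPM (log2 difference -1.83, SE 0.23, adjusted p = 0.000283).

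Adipocyte markers were split. Of 18, 5 were higher and 4 lower, with a median log2 difference of -0.15 and summed levels of 47523 to 56685 CPM in saline and 55773 to 59844 CPM in isoproterenol. With library totals 8 were lower, with a median of -0.26. White adipocyte markers had 5 of 9 higher and 1 lower, and 1 higher with the spread of all 16 libraries. Their summed levels were not raised, at 236.5 to 460 CPM in saline and 180.9 to 267.8 CPM in isoproterenol. Progenitor and fibroblast markers had 2 of 16 higher and 4 lower (0 higher with library totals), smooth muscle and pericyte markers 3 of 12 and 0, and Schwann cell and neuron markers 0 of 10 and 1. Nerve growth and guidance genes had 5 of 23 higher (2 without saline library 2, and 3 without saline library 3 or isoproterenol library 1 or 2) and 5 lower, and 2 and 8 with library totals. Among them Ntrk3, the receptor for neurotrophin-3, had 366, 518, 576 and 483 CPM in saline libraries 1 to 4 and 166, 76.7, 58.7 and 123 CPM in isoproterenol libraries 1 to 4 and fell 4.9-fold (log2 difference -2.29, SE 0.31, adjusted p = 0.000715). Transcription regulators of brown and white adipocytes had 6 of 31 higher and 4 lower. Their shares, 19.4% and 12.9%, were near the 16.3% and 15.8% of all genes. Kruppel-like factors had 1 of 14 higher and 0 lower, thyroid hormone action 1 of 11 and 3, and mitochondrial DNA and biogenesis genes 8 of 23 and 3. T and NK cell markers had 2 of 16 higher and 2 lower (0 higher with library totals and without saline library 3 or 4 or isoproterenol library 1), lipid-associated macrophage markers 4 of 16 and 1 (9 higher without saline library 1), mast cell and eosinophil markers 1 of 7 and 0 (0 higher with library totals), lymphatic markers 1 of 6 and 1, erythroid markers 0 of 5 and 0, and keratinocyte markers 1 of 4 and 1. Circadian clock genes had 2 of 19 higher and 2 lower, including Nr1d1, the repressor REV-ERB alpha, which fell from 197 to 102 CPM.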

How the data were processed

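The deposited values are log2 CPM per Ensembl gene, which the authors computed for each library; STAR, limma and the mouse build mm39 are named in the submitters' processing notes, and these sources do not give the counting step or its strand setting. In each library 100% of the values were whole reads within 1e-06 once a prior count of 0.5 was removed, so reads and the scaled library sizes could be recovered. Those sizes were 0.854 to 1.08 of the library totals. Symbols were found for 15320 of 15350 genes, and no mitochondrially encoded gene is listed.

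The 4 WT isoproterenol and 4 WT saline libraries were fitted in limma 3.58.1 (R 4.3.3), with 1 mean per group and an empirical Bayes variance with trend and robust settings. Differences are isoproterenol minus saline on the log2(CPM) scale with the prior count of 0.5, which understates changes of low genes. P-values were adjusted by Benjamini-Hochberg over all 15350 genes, with 0.05 as the threshold for a call. The procedure was tested on simulated data.

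Genes named are the 10 called genes per direction with the smallest p among those whose groups do not overlap and that reach a mean of 5 CPM, the 10 with the largest difference in mean CPM, the 8 with the largest log2 difference, and members of 65 gene lists with the smallest p or a role the text gives; 1 gene that this rule names is not reported here. The members, lists and tests were chosen with earlier results of these data known, so lists are described by counts and medians without a test. A list score is the mean over members of log2 CPM centred per gene. Promoters come from RefSeq on GRCm38.p6, a build that differs from that of the deposited values, and no coordinates were mixed.

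Same-numbered saline and isoproterenol libraries deviated together from their group means (correlations 0.210, 0.423, 0.234 and 0.535 for numbers 1 to 4), so a replicate block was fitted as an alternative. Over the 9998 genes that follow muscle markers least, the correlations were 0.109, -0.401, 0.095 and 0.020. The muscle score had the same order by replicate number in both groups, so that filter also removed genes that would follow a pairing. It therefore cannot tell muscle content from a pairing, and the labels give no source for a pairing. Other alternatives were library totals, median-of-ratios scaling, a prior count of 2, a mean of at least 1 CPM, no variance trend, voom weights, all 16 libraries in the fit and each library left out. A muscle score as covariate was added after seeing the data.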

Additional observations from a re-analysis of the deposited data

Results flagged for a closer look

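In 24 of 314 groups of 4 libraries looked at, over the 157 genes named, 1 library stood far from the other 3 by Dixon's test. A rate of about 1 in 20 groups holds by chance for independent groups of normally spread values. These genes share the same libraries and were looked at on the CPM scale, so the count cannot be set against that rate. No explanation was tested.

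Saline library 1 stood above the other saline libraries in 3 cell cycle genes: Ccnb2 at 1.37 CPM (others 0.977 to 1.04), Cdc20 at 3.40 CPM (others 1.37 to 1.44) and Mcm5 at 9.74 CPM (others 5.26 to 5.73). It stood below them in Gpd1 at 3796 CPM (others 5750 to 6150) and in Vegfa at 801 CPM (others 927 to 932). Saline library 2 was highest in Pttg1 at 102.7 CPM (others 86.1 to 88.3), in S100a8 at 2.57 CPM (others 0.661 to 0.955) and in Shisa7 at 16.8 CPM (others 9.04 to 10.3). It was lowest in Loxl1 at 15.0 CPM (others 31.4 to 31.8) and in Orm2 at 0.0452 CPM (others 0.207 to 0.233).

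Saline library 3 was highest in Scd1 at 26206 CPM (others 14575 to 15532), and lowest in Timp4 at 92.2 CPM (others 131 to 136) and in Gm7117 at 0.977 CPM (others 2.03 to 2.25). Saline library 4, which held the most skeletal muscle RNA, was highest in Dio2 at 194.9 CPM (others 20.7 to 39.9), in Nr4a1 at 727.5 CPM (others 94.8 to 163) and in Mfsd2a at 0.955 CPM (others 0.132 to 0.233).

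Isoproterenol library 1 was highest in Egr1 at 18.3 CPM (others 9.07 to 9.41), in Strip2 at 2.68 CPM (others 1.02 to 1.29) and, at about a single read, in Chrnb4 and in Gm7117 at 0.141 CPM each (others 0.0345 to 0.0408). Isoproterenol library 3 was highest in Rgs2 at 161.1 CPM (others 64.3 to 78.4) and lowest in Jun at 31.9 CPM (others 48.7 to 50.0). Isoproterenol library 4 was lowest in Cd74 at 84.3 CPM (others 125.5 to 133.5) and in Elane at 0.0350 CPM (others 0.285 to 0.329).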

How the results depend on the processing

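The counts of 2501 higher and 2422 lower genes were most affected by the libraries in the fit. With all 16 libraries sharing the estimate of the spread, 1167 were higher and 1379 lower, and 2528 of these 2546 genes were among the 4923; the cause was not tested. With each library left out in turn, 2058 to 2376 were higher and 1905 to 2355 lower. With the replicate block, 2651 were higher and 2646 lower. Among the 157 genes named, the pairing by number lost the calls of Fasn and Pnpla2 and added those of Dio2 and Nr4a1, and it changed no other call. With a muscle score as covariate, chosen after seeing the data, 2558 were higher and 2540 lower.

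Of the 146 named genes that were called, 106 were called in the same direction under each of the 17 alternatives and 40 lost the call under 1 or more. Signs turned only in named genes close to 0, none of them called. Adrb3 was -0.0999 with library totals and ranged from -0.0999 to 0.138 with each library left out. Cidea was -0.0276 and ranged from -0.0171 to 0.152, and Ppargc1a was -0.0069 and ranged from -0.1011 to 0.338.

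Depth limits the genes of lowest level. Of the 1276 genes with a mean under 1 CPM 16.8% were called, against 44.2% of those at 1000 CPM or more. Differences that skeletal muscle RNA carries cannot be read per animal, since the labels do not describe the dissection.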
